A study of Mus musculus with 2 samples.

Results

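The 10 genes described here encode the classical mouse MHC class I heavy chains and the machinery that makes and loads their peptides: H2-K1, H2-D1, B2m, Tap1, Tap2, Tapbp, Psmb8, Psmb9, Psmb10 and the transactivator gene Nlrc5. They were chosen by name, as the named components of the pathway, and are 10 of the 31053 features counted. Messenger RNA was measured by droplet single-cell sequencing of the 3' ends of transcripts in subcutaneous MC38 tumours of C57BL/6 mice. MC38 is a mouse colon adenocarcinoma line; the labels call the samples xenografts, although line and host are both mouse. One library came from tumours of mice given SHP099, an allosteric inhibitor of the phosphatase SHP2, at 5 mg/kg by mouth every day for 14 days, starting 5 days after the MC38 injection at an average tumour size of 100 mm3. The other library is the control: the protocol gives these mice PBS, and the sample label calls them untreated. Each group had 6 mice, and the labels do not say how many of them went into each library. With 1 library per group no difference between SHP099 and control has a replicate check, and none was tested. Differences are given with exact 95% intervals that cover counting error only.

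MHC class I molecules show peptides from inside the cell to CD8 T cells. Proteasomes cut cytosolic proteins, the TAP transporter carries the peptides into the endoplasmic reticulum, and tapasin helps to load them onto a heavy chain paired with beta-2 microglobulin. Interferon-gamma switches on most of these genes, and in cells exposed to it 3 inducible catalytic subunits replace those of the standard proteasome to form the immunoproteasome. NLRC5 drives transcription of class I genes at an upstream module of conserved boxes, beside sites for NF-kappaB and interferon regulatory factors.

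On the GRCm38 build 7 of the 10 genes lie on chromosome 17, within the major histocompatibility complex. Tapbp is at chr17:33915899-33929292 (plus strand), H2-K1 at chr17:33996017-34000347 (minus strand) and H2-D1 at chr17:35262730-35267499 (plus strand). Between them Psmb9 (chr17:34181987-34187764, minus strand), Tap1 (chr17:34187553-34197225, plus strand), Psmb8 (chr17:34197721-34201454, plus strand) and Tap2 (chr17:34203527-34216321, plus strand) follow one another. Psmb9 and Tap1 overlap at their 5' ends on opposite strands, away from the 3' ends that were counted. B2m is on chromosome 2 (chr2:122147686-122153083, plus strand). Nlrc5 (chr8:94434356-94527272, plus strand) and Psmb10 (chr8:105935735-105938444, minus strand) are on chromosome 8. All 10 are protein-coding.

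The stretches upstream of the heavy chain genes, of B2m and of the Psmb9-Tap1 pair are shown because the heavy chain genes and B2m varied together in these cells while Psmb9 varied less with them. Sequences are from RefSeq on GRCm38.p6, which held promoter windows for 8 of the 10 genes. In the first 3 the capitals mark, where present, the kappaB motif GGGGATTCC, an interferon regulatory factor core AANNGAAA on either strand, and the pair of boxes TGACG and ATTGG of the module at which NLRC5 acts. In the last they mark a GC box GGGCGG. H2-K1 is chr17:34000348-34000472 on the minus strand, H2-D1 chr17:35262909-35263033 on the plus strand, B2m chr2:122147522-122147646 on the plus strand, and the region between the Psmb9 and Tap1 starts is chr17:34187331-34187555, read on the minus strand.
H2-K1: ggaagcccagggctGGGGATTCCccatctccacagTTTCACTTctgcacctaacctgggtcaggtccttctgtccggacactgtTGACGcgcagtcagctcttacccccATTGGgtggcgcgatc
H2-D1: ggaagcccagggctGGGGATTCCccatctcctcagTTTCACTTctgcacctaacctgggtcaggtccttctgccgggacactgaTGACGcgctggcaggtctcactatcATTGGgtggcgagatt
B2m: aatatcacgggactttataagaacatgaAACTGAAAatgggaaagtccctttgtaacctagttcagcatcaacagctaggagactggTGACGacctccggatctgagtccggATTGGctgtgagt
Psmb9: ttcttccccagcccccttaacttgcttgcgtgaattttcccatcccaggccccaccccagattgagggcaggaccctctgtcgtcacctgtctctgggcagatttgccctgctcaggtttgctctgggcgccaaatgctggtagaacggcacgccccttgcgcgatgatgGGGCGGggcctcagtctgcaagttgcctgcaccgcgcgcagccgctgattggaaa

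Both heavy chain promoters held 1 kappaB motif, 1 interferon regulatory factor core and 1 pair (its boxes 15 to 25 bases apart), and the B2m promoter held the core and the pair. Among 32851 RefSeq promoter windows of the same length, 0.250% held the kappaB motif, 23.9% the core, 0.435% the pair and 35.7% the GC box, counting both strands. The Psmb9 and Tap1 starts face away from each other with 225 bases between them, and neither window held the kappaB motif, the core or the pair. The windows of Tapbp, Psmb8 and Psmb10 held none of these either. Over the tumour clusters of both libraries, levels of these genes without the motifs correlated with those of H2-K1 to unlike degrees. The values were 0.949 for Tapbp, 0.817 for Tap1, 0.721 for Psmb8, 0.585 for Psmb10 and 0.398 for Psmb9. Whether the motifs bear on how the genes varied was not tested. Only the letters given above were searched for, so other forms of these sites, in B2m as elsewhere, are not marked. A match is a description of the letters in the window and not a site of binding.

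The SHP099 library held 7702 cells after filters, from 112901642 UMIs over all barcodes, and the control library 7688 cells from 126218180 UMIs, where a UMI is 1 counted RNA molecule. The libraries shared 100 barcode sequences. Cells fell into classes by clustering without the genes described here, so that these genes did not shape the clusters. The tumour class, 4245 SHP099 and 4128 control cells, was set by low Xist and by markers such as Hmga2. Left out of the comparisons of classes were 5 SHP099 and 10 control plasmacytoid dendritic cells and an unnamed cluster with low Xist, of 54 SHP099 and 52 control cells. Xist was at 3.19 CPM in SHP099 and 2.70 CPM in control tumour cells, against 1160.5 CPM in SHP099 and 999 CPM in control phagocytes. Hmga2 was at 82.6 CPM in SHP099 and 108 CPM in control tumour cells. No Epcam UMI was counted in tumour cells of either library, and Krt8 was at 0.0326 CPM in SHP099 and 0.116 CPM in control. In the fibroblast class, however, Epcam was at 78.2 CPM in SHP099 and 0 CPM in control. Krt8 was there at 43.0 CPM in SHP099 and 4.59 CPM in control. That class thus differed between the libraries in both markers, which limits comparisons that use it. Clusters 0, 3 and 4 of the tumour class had the fibroblast marker Dcn and no tumour marker among their 10 leading genes, so results are given by cluster number. Over both libraries these clusters had 46.4, 9.43 and 28.4 CPM of Col1a1, 5336, 2160 and 2911 CPM of Col3a1 and 4724, 1806 and 1674 CPM of Dcn, against 9969 CPM of Col1a1, 14203 CPM of Col3a1 and 1734 CPM of Dcn in the fibroblast class. Dcn thus passed the fibroblast level in clusters 0 and 3 and lay just below it in cluster 4. Free RNA was present: C1qa, a phagocyte gene, stood at 22.5 CPM in SHP099 and 16.2 CPM in control tumour cells, against 4545 CPM in SHP099 and 4097 CPM in control phagocytes. The median cell carried 20305 UMIs in SHP099 and 24444 UMIs in control in the tumour class, 4201 UMIs in SHP099 and 4326 UMIs in control in phagocytes, and 2037 UMIs in SHP099 and 2380.5 UMIs in control in T cells. Tumour cells of the libraries also differed in haemoglobin transcripts, with 62.1 CPM in SHP099 and 28.9 CPM in control, in mitochondrial share, with 3.60% in SHP099 and 3.08% in control, and in Malat1, a nuclear RNA, with 24440.4 CPM in SHP099 and 17898 CPM in control.

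Tumour cells expressed every one of the 10 genes, with the heavy chains and B2m at lower shares of their RNA than in phagocytes, T cells or endothelial cells. Levels are in CPM, that is UMIs per 1000000 UMIs of the class in that library. H2-K1, a classical heavy chain, was at 850.3 CPM in SHP099 and 842 CPM in control tumour cells. It was at 1755 CPM in SHP099 and 1812 CPM in control phagocytes, at 1772 CPM in SHP099 and 1776 CPM in control endothelial cells and at 1656 CPM in SHP099 and 1628 CPM in control T cells. The smaller classes had less, with 1349 CPM in SHP099 and 1539 CPM in control fibroblasts, 1218 CPM in SHP099 and 1432 CPM in control natural killer cells and 1178 CPM in SHP099 and 1076 CPM in control dendritic cells. Tumour cells were thus lowest among these 7 classes in both libraries, and phagocytes, endothelial cells and T cells were highest in both. H2-D1, the other classical heavy chain, was at 1575 CPM in SHP099 and 1534 CPM in control tumour cells, again lowest of the 7 classes in both libraries; the unnamed cluster, which is not among them, had 1334 CPM in SHP099 and 1326 CPM in control. It was at 3217 CPM in SHP099 and 2970.5 CPM in control endothelial cells, the highest of the 7 classes in both, although the control level lay within counting error of the 2884 CPM in control phagocytes. B2m, the light chain, was at 5356 CPM in SHP099 and 5521 CPM in control tumour cells and at 10219.9 CPM in SHP099 and 10970.2 CPM in control phagocytes, the lowest and highest levels of the 7 classes in both libraries. The other classes rest on few cells: 46 SHP099 and 30 control endothelial cells, 57 SHP099 and 86 control fibroblasts, 54 SHP099 and 99 control natural killer cells, and 77 SHP099 and 78 control dendritic cells.

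**Figure D1:**
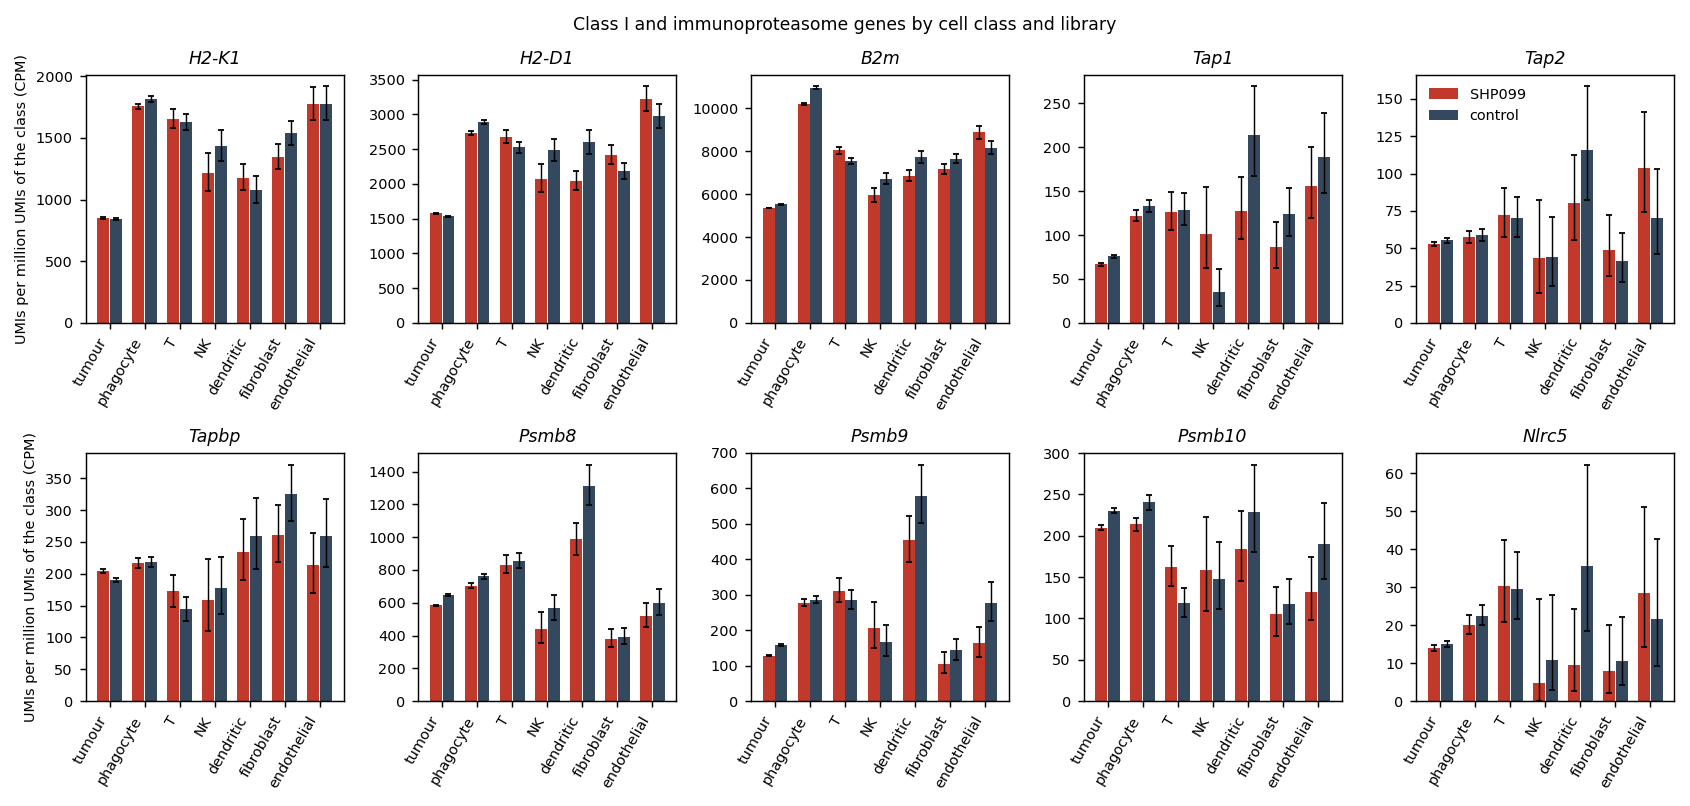
Level of each of the 10 genes in CPM of the class by cell class, with 1 bar per library and exact counting intervals. Tumour cells sit at 850.3 CPM of H2-K1 in the SHP099 library and 842 CPM in control, below phagocytes at 1755 CPM in SHP099 and 1812 CPM in control.

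The transport and loading genes differed less uniformly between classes. Tap1, a half-transporter of the peptide pump, was at 66.5 CPM in SHP099 and 75.7 CPM in control tumour cells. It was at 122 CPM in SHP099 and 133 CPM in control phagocytes, 126 CPM in SHP099 and 129 CPM in control T cells, 128 CPM in SHP099 and 214 CPM in control dendritic cells and 156 CPM in SHP099 and 189.5 CPM in control endothelial cells, all above tumour cells of the same library. In natural killer cells Tap1 rested on 21 UMIs in SHP099 and 13 UMIs in control, so its level there is poorly known. Tap2, the partner half-transporter, was at 52.8 CPM in SHP099 and 55.3 CPM in control tumour cells, close to the 57.5 CPM in SHP099 and 58.8 CPM in control phagocytes and below the 72.4 CPM in SHP099 and 70.0 CPM in control T cells. Tapbp, which encodes tapasin, was at 205 CPM in SHP099 and 189.9 CPM in control tumour cells, against 217 CPM in SHP099 and 218 CPM in control phagocytes and 172 CPM in SHP099 and 144 CPM in control T cells. Fibroblasts had the most Tapbp in both libraries among classes with over 20 cells, with 260.0 CPM in SHP099 and 324 CPM in control.

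Of the immunoproteasome subunits, Psmb9 set tumour cells most apart from phagocytes and dendritic cells. It was at 129 CPM in SHP099 and 158 CPM in control tumour cells, against 278 CPM in SHP099 and 286 CPM in control phagocytes, 312 CPM in SHP099 and 285 CPM in control T cells and 454 CPM in SHP099 and 579.6 CPM in control dendritic cells. Psmb8 was at 584 CPM in SHP099 and 648 CPM in control tumour cells and at 705 CPM in SHP099 and 761 CPM in control phagocytes. It was at 833 CPM in SHP099 and 857 CPM in control T cells and at 987 CPM in SHP099 and 1314 CPM in control dendritic cells. Of the 7 classes dendritic cells were thus highest for both subunits in both libraries, and fibroblasts, with 381 CPM in SHP099 and 393 CPM in control of Psmb8, were lowest for Psmb8. Psmb10 followed another order, with 209.8 CPM in SHP099 and 230.2 CPM in control tumour cells, 214 CPM in SHP099 and 240.3 CPM in control phagocytes and 162 CPM in SHP099 and 119 CPM in control T cells. Nlrc5, the class I transactivator, was at 14.1 CPM in SHP099 and 15.1 CPM in control tumour cells, on 1292 UMIs in SHP099 and 1561 in control, and at 20.1 CPM in SHP099 and 22.5 CPM in control phagocytes. In T cells Nlrc5 was at 30.2 CPM in SHP099 and 29.6 CPM in control, on 33 UMIs in SHP099 and 46 in control.

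Within the SHP099 library all 10 genes were lower in tumour cells than in phagocytes, and the same held within the control library. Over all genes tested, 42.8% in the SHP099 library and 41.8% in control were lower in tumour cells at any size. The median log2 ratio of tumour cells over phagocytes was -0.65 in SHP099 and -0.69 in control for the 10 genes, beside 0.21 in SHP099 and 0.26 in control over all genes. In each library 5 of the 10 genes were at least 1.5-fold lower, against a background of 26% in SHP099 and 26.8% in control. The log2 ratio was -1.04 in SHP099 and -1.10 in control for H2-K1, -0.93 in SHP099 and -0.99 in control for B2m and -0.79 in SHP099 and -0.91 in control for H2-D1. It was -1.11 in SHP099 and -0.85 in control for Psmb9, -0.87 in SHP099 and -0.81 in control for Tap1 and -0.50 in SHP099 and -0.57 in control for Nlrc5. The other genes were closer to 0, with -0.03 in SHP099 and -0.06 in control for Psmb10, -0.08 in SHP099 and -0.20 in control for Tapbp, -0.12 in SHP099 and -0.09 in control for Tap2 and -0.27 in SHP099 and -0.23 in control for Psmb8. The directions of those 4 depend on the scaling. When mitochondrial, ribosomal and haemoglobin genes were left out of the totals, which put the all-gene median at 0.51 in SHP099 and 0.57 in control, the 6 genes H2-K1, H2-D1, B2m, Tap1, Psmb9 and Nlrc5 stayed lower in both libraries.

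Against T cells the heavy chains, Psmb9 and Nlrc5 were again lower in tumour cells, and 2 genes ran the other way. The log2 ratio of tumour cells over T cells was -0.96 in SHP099 and -0.95 in control for H2-K1, -1.27 in SHP099 and -0.85 in control for Psmb9 and -1.08 in SHP099 and -0.95 in control for Nlrc5. It was -0.76 in SHP099 and -0.72 in control for H2-D1, -0.59 in SHP099 and -0.45 in control for B2m and -0.92 in SHP099 and -0.76 in control for Tap1. Tap2 was at -0.45 in SHP099 and -0.34 in control, and Psmb8 at -0.51 in SHP099 and -0.40 in control. Tapbp, at 0.25 in SHP099 and 0.40 in control, and Psmb10, at 0.37 in SHP099 and 0.95 in control, were higher in tumour cells. In all 3 scalings 8 of the 10 genes were lower in tumour cells in each library, and 46.7% of all genes in SHP099 and 45.5% in control were lower at any size. By 1.5-fold, 6 genes were lower in SHP099 and 5 in control, as were 28.3% of all genes in SHP099 and 27.8% in control. Only Psmb10 in control was as much higher, as were 33.6% of all genes in SHP099 and 36.1% in control. The medians were -0.68 in SHP099 and -0.58 in control, beside all-gene medians of 0.08 in SHP099 and 0.14 in control, which became 0.23 in SHP099 and 0.20 in control without mitochondrial, ribosomal and haemoglobin genes. Against dendritic cells Psmb9 gave the widest gap among the 10 genes and the 6 classes set against tumour cells, with log2 ratios of -1.82 in SHP099 and -1.87 in control.

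These levels are shares of each cell class's RNA. Counted per cell, B2m and H2-K1 were higher in tumour cells than in phagocytes, and a tumour cell also carried several times as many UMIs in all. B2m gave 116 UMIs per cell in SHP099 and 139 UMIs per cell in control tumour cells, against 47.9 UMIs per cell in SHP099 and 50.5 UMIs per cell in control phagocytes, and H2-K1 gave 18.4 UMIs per cell in SHP099 and 21.2 UMIs per cell in control tumour cells, against 8.23 UMIs per cell in SHP099 and 8.35 UMIs per cell in control phagocytes. Endothelial cells had 14.8 UMIs of H2-K1 per cell in SHP099 and 21.9 UMIs per cell in control, so the control value was not below that of tumour cells. To compare shares of cells, each cell was thinned to 2000 UMIs, which left out 18 SHP099 and 61 control tumour cells and 320 SHP099 and 321 control phagocytes. H2-K1 was then seen in 78.4% of SHP099 and 78.6% of control tumour cells, against 92.5% of SHP099 and 94.3% of control phagocytes, and B2m in 99.9% of tumour cells in both libraries. Unthinned, H2-K1 was seen in 99.7% of SHP099 and 99.3% of control tumour cells. As a measure of free RNA, Lyz2, a phagocyte gene, was seen in 7.69% of SHP099 and 7.79% of control tumour cells after thinning. Tumour cells with no UMI of either heavy chain after thinning numbered 119 of 4227 in SHP099 (2.82%, interval 2.34 to 3.36%) and 114 of 4067 in control (2.80%, interval 2.32 to 3.36%). In phagocytes the same count was 1 of 2443 in SHP099, or 0.0409%, and 1 of 2358 in control, or 0.0424%. At this depth the share of tumour cells without a heavy chain UMI was thus nearly the same in both libraries and far above that of phagocytes. If all cells of a class shared its mean, counting error alone would give 0.493% in SHP099 and 0.635% in control tumour cells. In phagocytes it would give 0.0111% in SHP099 and 0.00683% in control. The expected share was thus also higher in tumour cells, whose mean was lower. Whether the tumour cells without a UMI lack class I was not tested.

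Each inducible subunit takes the place of 1 constitutive subunit, so the ratio of their UMIs was taken as a description of the pair: Psmb8 for Psmb5, Psmb9 for Psmb6 and Psmb10 for Psmb7. The ratios compare 3' counts of different genes and not assembled proteasomes. In tumour cells there were 5.43 Psmb8 UMIs per Psmb5 UMI in SHP099 (interval 5.31 to 5.55) and 4.69 in control (4.61 to 4.78). The Psmb9 to Psmb6 ratio was 0.713 in SHP099 (0.696 to 0.73) and 0.878 in control (0.86 to 0.897). The Psmb10 to Psmb7 ratio was 1.18 in SHP099 (1.16 to 1.21) and 1.06 in control (1.04 to 1.08). The 3 pairs thus did not move together: Psmb9 was lower against its partner in SHP099 tumour cells, while Psmb8 and Psmb10 were higher against theirs with the clusters summed. Psmb8 over Psmb5 was nevertheless lower in SHP099 in cluster 11, with 3.26 in SHP099 and 3.55 in control. Psmb10 over Psmb7 was lower in cluster 11, with 0.686 in SHP099 and 0.737 in control, and in cluster 4, with 1.88 in SHP099 and 2.03 in control. Of the constitutive partners Psmb5 was at 108 CPM in SHP099 and 138 CPM in control, Psmb7 at 177 CPM in SHP099 and 217 CPM in control and Psmb6 at 180.4 CPM in SHP099 and 181 CPM in control.

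On this scale Psmb9 was lower in the tumour class than in phagocytes, T cells and dendritic cells. Its ratio to Psmb6 was 1.08 in phagocytes of both libraries, 1.31 in SHP099 and 1.36 in control T cells and 1.75 in SHP099 and 2.24 in control dendritic cells, all above the values of the tumour class as a whole. In natural killer cells it was 0.977 in SHP099 (interval 0.627 to 1.52) and 1.30 in control (0.873 to 1.94), and both intervals include the tumour values. In fibroblasts it was 0.635 in SHP099 (0.443 to 0.904) and 0.904 in control (0.676 to 1.21). In endothelial cells it was 0.670 in SHP099 (0.479 to 0.932) and 1.05 in control (0.788 to 1.40). Both SHP099 values lay below the tumour value, and all these intervals include the tumour value of the same library. The ranges of clusters overlapped: phagocyte cluster 7 had 0.816 in SHP099 and 0.928 in control, and tumour cluster 3 had 0.816 in SHP099 and 1.05 in control. The Psmb8 to Psmb5 ratio, 5.47 in SHP099 and 5.37 in control phagocytes and 5.61 in SHP099 and 5.40 in control T cells, lay near the tumour value in SHP099. Within the tumour class the Psmb9 to Psmb6 ratio was 1.23 in SHP099 and 1.35 in control in cluster 0, and 0.448 in SHP099 and 0.659 in control in cluster 11. It was lower in SHP099 in all 7 tumour clusters. Among phagocyte clusters the ratio was lower in SHP099 at any size in clusters 2, 5, 6, 7 and 13, and higher in cluster 8. In cluster 2 it was 1.30 in SHP099 and 1.61 in control, and in cluster 8 it was 1.16 in SHP099 and 1.06 in control.

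**Figure D2:**
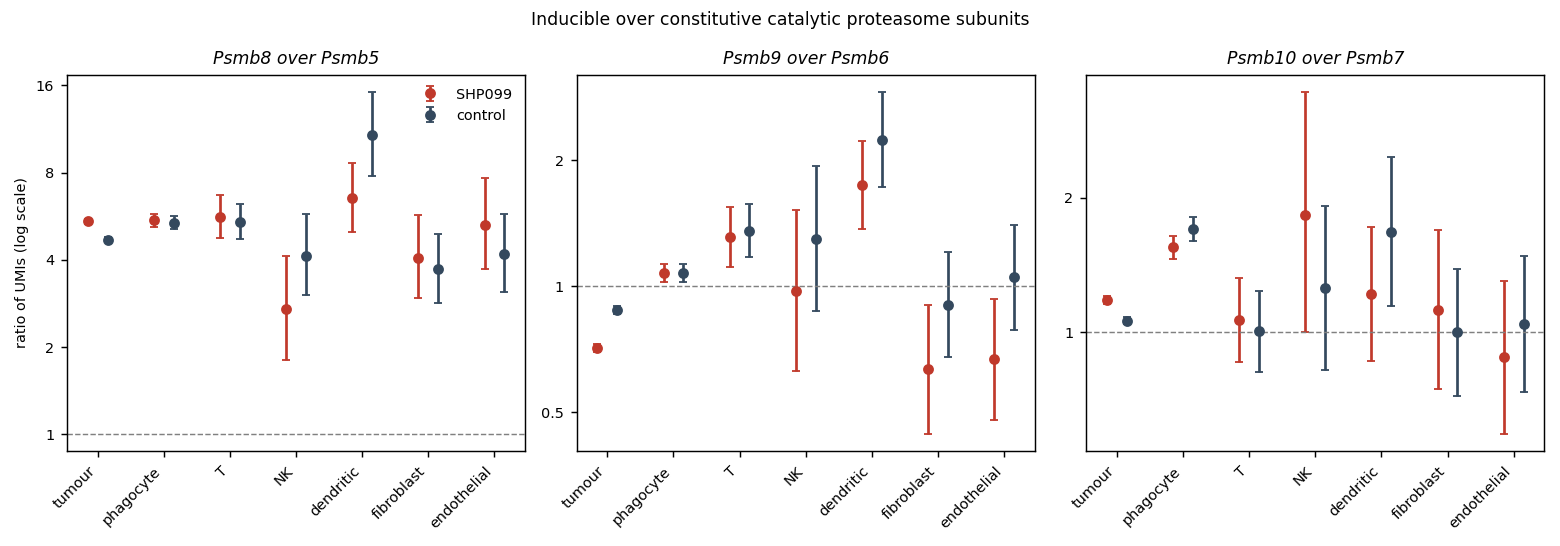
Ratio of the UMIs of each inducible proteasome subunit to those of the constitutive subunit it replaces (log axis), by cell class, with 1 point per library and exact counting intervals. Psmb9 over Psmb6 is 0.713 in SHP099 tumour cells and 0.878 in control ones. The ratio is also lower in SHP099 in 7 of 7 tumour clusters, which are not drawn.

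Among the tumour cells the heavy chains and B2m varied widely and together. Cluster 0, marked by the matrix genes Aspn, Postn, Ogn and Dcn, was highest for B2m, with 8662 CPM in SHP099 and 9361 CPM in control, and cluster 11, marked by Rrm2b, was lowest, with 3420.0 CPM in SHP099 and 3999.9 CPM in control. Cluster 9, marked by cell division genes such as Top2a, was at 4484 CPM in SHP099 and 4992 CPM in control. Cluster 10, marked by Ung, was at 4328 CPM in SHP099 and 4957 CPM in control. H2-K1 followed the same order at its ends, with 1432 CPM in SHP099 and 1438 CPM in control cells of cluster 0 and 556 CPM in SHP099 and 644 CPM in control cells of cluster 11. Tapbp was at 316 CPM in SHP099 and 277 CPM in control cells of cluster 0 and 125.1 CPM in SHP099 and 143 CPM in control cells of cluster 11. Psmb9 spanned far less, from 104 CPM in cluster 11 to 149.9 CPM in cluster 9 in SHP099 and between 135 and 176 CPM in control.

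Over the 14 points formed by 7 tumour clusters and 2 libraries, log2 levels of H2-K1 correlated with those of B2m (Pearson r = 0.977), H2-D1 (0.969) and Tapbp (0.949). Psmb9 correlated with Psmb8 (0.840) more closely than with H2-K1 (0.398), and Nlrc5 correlated with H2-K1 at 0.785 and with Psmb9 at 0.266. These values are descriptions, since the points share 2 libraries, their depth and their clustering. The 8 genes outside the pathway lists most like the mean of the 10 over these points, among 4641 compared, were Il18bp (0.971), Zbp1 (0.968), Ifi205 (0.963), Gsdmd (0.958), Ubd (0.953), St3gal1 (0.952), Ilk (0.951) and Gbp9 (0.9498). Ubd, a ubiquitin-like protein gene, ran between 22.97 and 415 CPM and Ifi205 between 6.98 and 78.8 CPM over the same points.

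**Figure D3:**
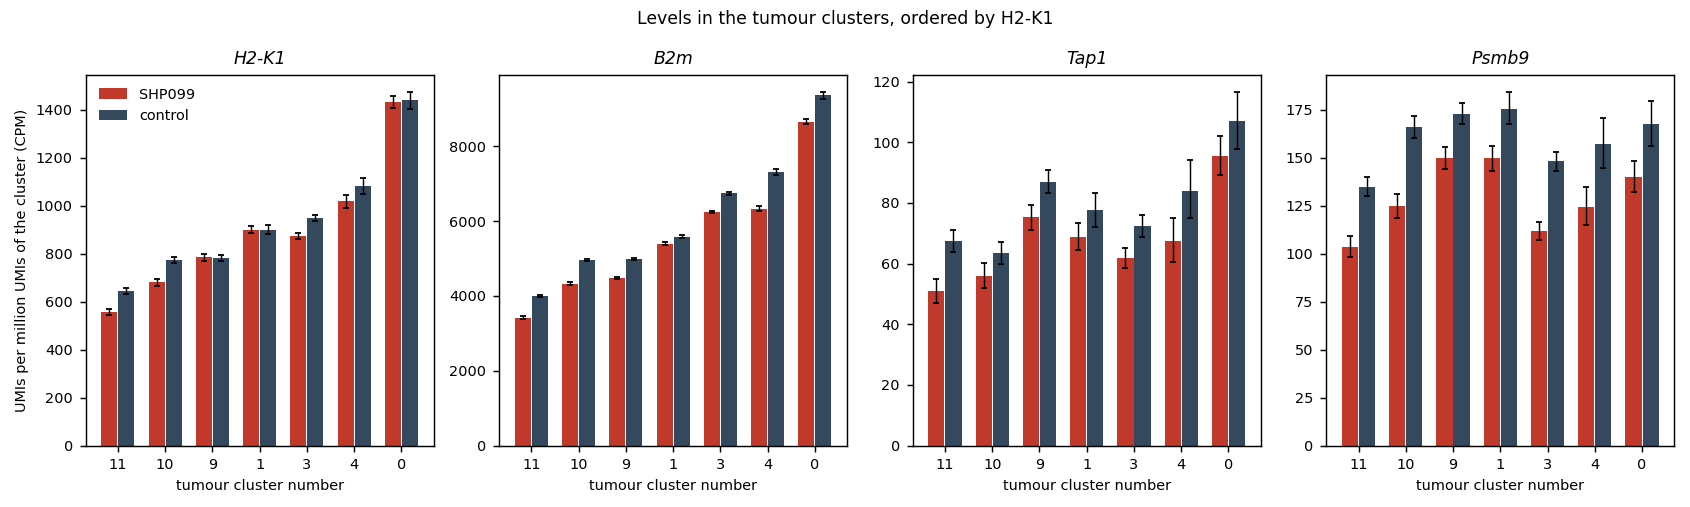
Levels of H2-K1, B2m, Tap1 and Psmb9 in each of the 7 tumour clusters, in CPM, with the SHP099 and control libraries side by side. B2m is highest in cluster 0, at 8662 CPM in SHP099 and 9361 CPM in control, and lowest in cluster 11, at 3420.0 CPM in SHP099 and 3999.9 CPM in control.

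In SHP099 tumour cells most of the 10 genes were slightly lower than in control tumour cells of the same cluster, and none was 1.5-fold higher or lower in any cluster. Of all genes, 2.34% in cluster 0, 2.15% in cluster 1, 0.59% in cluster 3, 3.29% in cluster 4, 0.771% in cluster 9, 0.779% in cluster 10 and 0.5% in cluster 11 were 1.5-fold higher, and 2.06%, 0.695%, 0.546%, 2.32%, 0.449%, 0.534% and 0.4% in the same clusters were as much lower. Of the 10 genes, 9 were lower in clusters 0, 1 and 4, all 10 in clusters 3, 10 and 11, and 7 in cluster 9. Under the other scalings the counts lay between 7 and 10. The share of all genes lower at any size was 53.3%, 42.6% and 48.1% in clusters 0, 1 and 4, 51.2%, 37.5% and 35.5% in clusters 3, 10 and 11, and 38.4% in cluster 9. Median log2 ratios of the 10 genes were -0.07, -0.13, -0.15, -0.17, -0.14, -0.18 and -0.20 in clusters 0, 1, 3, 4, 9, 10 and 11. The medians of all genes in those clusters lay between -0.02 and 0.06. The clusters come from the same pair of libraries and are not replicates of each other.

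Psmb9 had the lowest log2 ratio of the 10 genes with the clusters summed, and it was lower in each of them. In cluster 0 it was at 140.0 CPM in SHP099 and 168 CPM in control, in cluster 1 at 149.7 CPM in SHP099 and 176 CPM in control, in cluster 3 at 112 CPM in SHP099 and 148 CPM in control and in cluster 4 at 124.5 CPM in SHP099 and 157 CPM in control. In cluster 9 it was at 149.9 CPM in SHP099 and 173 CPM in control, in cluster 10 at 124.6 CPM in SHP099 and 166 CPM in control and in cluster 11 at 104 CPM in SHP099 and 135 CPM in control. SHP099 was on the lower side in each, with log2 ratios between -0.41 in cluster 10 (interval -0.50 to -0.32) and -0.21 in cluster 9 (-0.28 to -0.14). Tap1, its neighbour across the shared promoter region, was lower in all 7 as well, between -0.40 and -0.16, with 50.9 CPM in SHP099 and 67.5 CPM in control in cluster 11.

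The other immunoproteasome subunits and the light chain went the same way. Psmb8 was lower in SHP099 in 7 of 7 clusters, with log2 ratios between -0.28 and -0.04, and Psmb10 in 7 of 7, between -0.31 and -0.11. B2m was lower in 7 of 7, between -0.23 and -0.05, as in cluster 10 with 4328 CPM in SHP099 and 4957 CPM in control. Tap2, between -0.32 and -0.05, and Nlrc5, between -0.47 and -0.05, were also lower in all 7, but their counting intervals lay below 0 in only 2 clusters for Tap2 and 1 for Nlrc5. The intervals of Psmb9, Tap1, Psmb10 and B2m lay below 0 in 7 of 7 and those of Psmb8 in 6. These 7 genes were lower in 7 of 7 clusters under both other scalings too, for which no intervals were made. Of the heavy chains, H2-K1 was lower in 6 of 7 clusters, between -0.21 and 0.00. H2-D1 was lower in 6 of 7, between -0.17 and 0.01, and in 5 of 7 without mitochondrial, ribosomal and haemoglobin genes. For each heavy chain the intervals lay below 0 in 4 clusters and above 0 in none. Tapbp was the exception, lower in 3 of 7 clusters, with log2 ratios between -0.20 in cluster 11 and 0.19 in cluster 0.

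**Figure D4:**
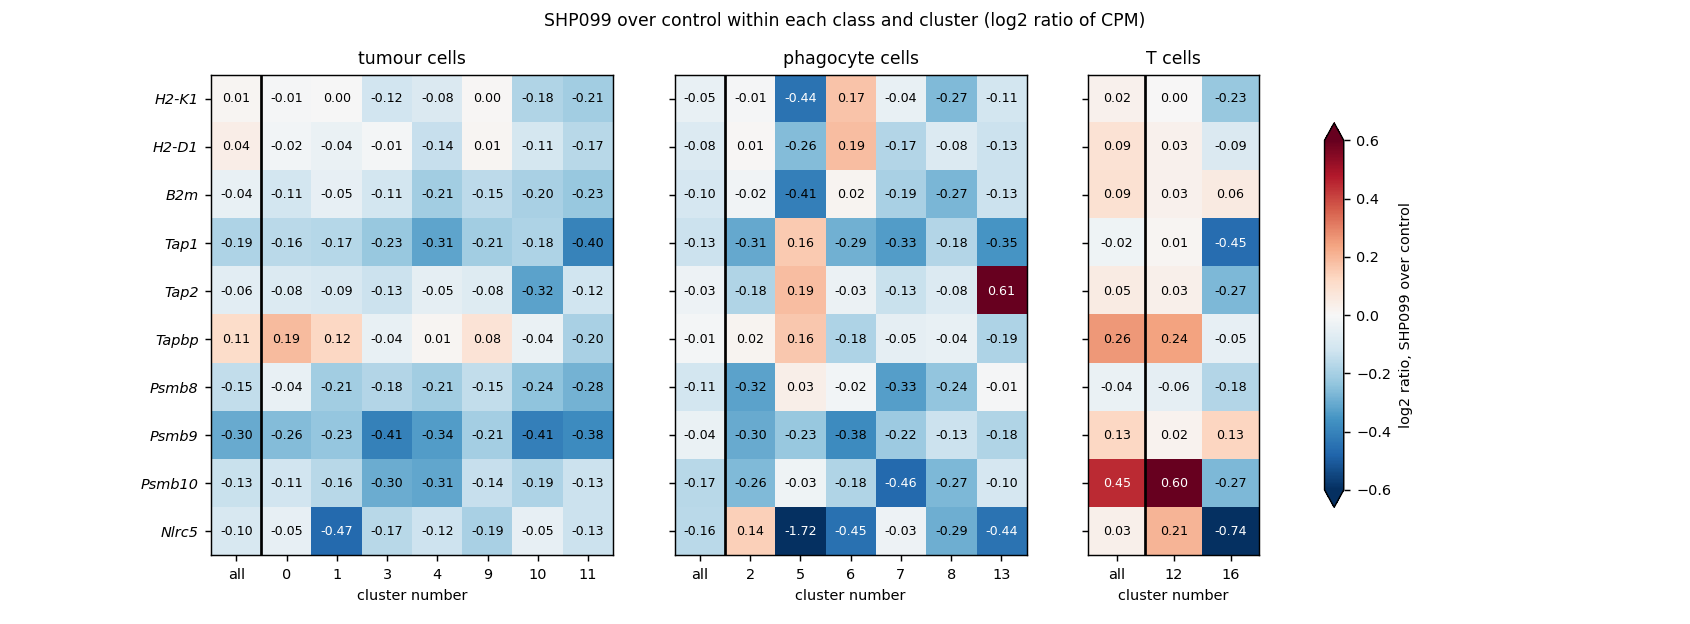
Log2 ratio of SHP099 over control for the 10 genes (rows) in each tumour, phagocyte and T cell cluster (columns). Psmb9 lies between -0.41 and -0.21 in the 7 tumour clusters, and Tapbp between -0.20 and 0.19.

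With the 7 tumour clusters summed, the differences were smaller. Psmb9 was at 129 CPM in SHP099 (11821 UMIs) and 158 CPM in control (16429 UMIs), a log2 ratio of -0.30 with a counting interval of -0.34 to -0.27. Tap1 had a ratio of -0.19 (-0.24 to -0.14), Psmb8 of -0.15 (-0.17 to -0.13) and Psmb10 of -0.13 (-0.16 to -0.11). Nlrc5 was at -0.10 with an interval of -0.21 to 0.01, Tap2 at -0.06 (-0.12 to -0.01) and B2m at -0.04 (-0.05 to -0.04). H2-K1, with 78167 UMIs in SHP099 and 87310 UMIs in control, was at 0.01 (-0.00 to 0.03), H2-D1 at 0.04 (0.03 to 0.05) and Tapbp at 0.11 (0.08 to 0.14). Thus 7 of 10 genes were lower, and 8 with median-of-ratios scaling, where H2-K1 joined them, against 44.3% of all genes. None was 1.5-fold higher or lower, against 1.12% and 0.242% of 7037 genes. The median was -0.08, beside 0.02 over all genes, and -0.11 without clusters 0, 3 and 4.

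The libraries held the 7 clusters in different proportions, which moves the summed values. With each cluster weighted as in control, B2m would be at 4985 CPM in SHP099 and 5521 CPM in control, a log2 ratio of -0.15, and with the SHP099 weights the ratio was -0.14. H2-K1 came to -0.09 at the control weights and -0.08 at the SHP099 weights, H2-D1 to -0.05 at both, and Psmb9 to -0.32 at the control weights and -0.31 at the SHP099 weights. Tapbp came to 0.00 at the control weights and 0.03 at the SHP099 weights. At either fixed mix 9 of the 10 genes were therefore lower in SHP099. What part the mix, free RNA, mitochondrial share or Malat1 had in these differences beyond this was not tested.

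Thinned to 2000 UMIs, Psmb9 was seen in 21.2% of SHP099 tumour cells (interval 19.95 to 22.4%) and 27.2% of control ones (25.8 to 28.6%), and at full depth in 84.6% of SHP099 and 88.5% of control ones. Tap1 was seen in 12.7% of thinned SHP099 tumour cells (11.7 to 13.7%) and 15.2% of control ones (14.1 to 16.3%), and Psmb8 in 66.0% of SHP099 and 69.3% of control ones. Tapbp went the other way, at 34.6% in SHP099 and 31.0% in control. For these 4 genes shares of cells and summed levels gave the same order between libraries. H2-D1 was seen in 91.4% of tumour cells in both, while its summed level was slightly higher in SHP099.

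Other components of the pathway were also compared in tumour cells, where 55.7% of all genes were higher and 44.3% lower in SHP099. Of the constitutive catalytic subunits, Psmb5 had a log2 ratio of -0.36, Psmb7 of -0.29 and Psmb6 of -0.00. All 11 other subunits of the 20S core were lower in SHP099, at a median of -0.21. The core median was below 0 in each of the 7 clusters, between -0.26 and -0.09. Among activators and assembly factors 3 of 9 were higher and 6 lower. Psme1, an activator subunit, was at 156 CPM in SHP099 and 154 CPM in control, Psme2, its partner, at 407 CPM in SHP099 and 456 CPM in control (log2 ratio -0.16), and Pomp, the assembly chaperone, at 257 CPM in SHP099 and 287 CPM in control (-0.16). Of 13 peptide loading and trimming genes, 8 were higher and 5 lower, near the share of all genes, with the chaperone Calr at 751 CPM in SHP099 and 688 CPM in control (0.13), the peptidase Erap1 at 16.4 CPM in SHP099 and 14.9 CPM in control (0.13) and the tapasin relative Tapbpl at 18.9 CPM in SHP099 and 20.9 CPM in control (-0.14).

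Of 15 other class I genes among the features, 6 were measured at 10 CPM or more in tumour cells, and 2 were higher and 4 lower in SHP099. H2-T23, which encodes the Qa-1 antigen, was at 61.8 CPM in SHP099 and 52.5 CPM in control (0.23), and H2-T22 at 459 CPM in SHP099 and 442 CPM in control (0.06). H2-Q7, a Qa-2 gene, was at 247 CPM in SHP099 and 288 CPM in control (-0.22). H2-Q4 was at 235 CPM in SHP099 and 237 CPM in control (-0.01) and H2-Q6 at 91.1 CPM in SHP099 and 94.0 CPM in control (-0.05). H2-M3, which presents formylated peptides, was at 31.2 CPM in SHP099 and 33.0 CPM in control (-0.08). Of the 100-base windows in the last 400 bases of their transcripts, 29.9% for H2-Q6, 28.1% for H2-T22, 12.96% for H2-T23 and 8.64% for H2-Q4 also occur in another gene, so their counts are uncertain; the genes sharing with H2-Q6 were H2-Q7, H2-D1 and others. None of the windows of the 10 main genes did.

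Among factors that act on these promoters, Irf1, a transcription factor induced by interferon-gamma, was at 66.3 CPM in SHP099 tumour cells and 79.1 CPM in control ones (log2 ratio -0.25) and was lower in 7 of 7 clusters, between -0.35 and -0.15. Irf2, which binds the same sites, was at 56.0 CPM in SHP099 and 47.3 CPM in control (0.24). The receptor chains were higher, Ifngr1 at 68.4 CPM in SHP099 and 49.5 CPM in control (0.46) and Ifngr2 at 46.6 CPM in SHP099 and 38.8 CPM in control (0.26), and Socs1, a feedback inhibitor, was at 37.9 CPM in SHP099 and 43.3 CPM in control (-0.19). Gbp2, a GTPase gene induced by interferon-gamma, was at 305 CPM in SHP099 and 387 CPM in control (-0.34) and lower in 7 of 7 clusters, between -0.84 and -0.24. Ifng itself had 5 UMIs in SHP099 and 8 UMIs in control tumour cells and Ciita, the class II transactivator, 17 in SHP099 and 6 in control, both too few for a comparison.

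Genes induced mainly by type I interferon went the opposite way in the same cells. In the type I interferon list all 22 measured genes were higher in SHP099 tumour cells, where 55.7% of all genes were higher at any size, and 6 of them were at least 1.5-fold higher. Ifit1, an antiviral RNA-binding protein gene, was at 166 CPM in SHP099 and 88.0 CPM in control (log2 ratio 0.92). The list median was 0.49, 0.42, 0.14, 0.38, 0.33, 0.31 and 0.20 in clusters 0, 1, 3, 4, 9, 10 and 11, and that of the interferon-gamma-responsive list -0.07, -0.08, -0.41, -0.03, -0.26, -0.31 and -0.29. In every tumour cluster the median of the 10 class I genes lay below 0, between -0.20 and -0.07. So did the medians of the interferon-gamma list and of the other 20S core subunits described above. The cause of these directions was not tested.

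**Figure D5:**
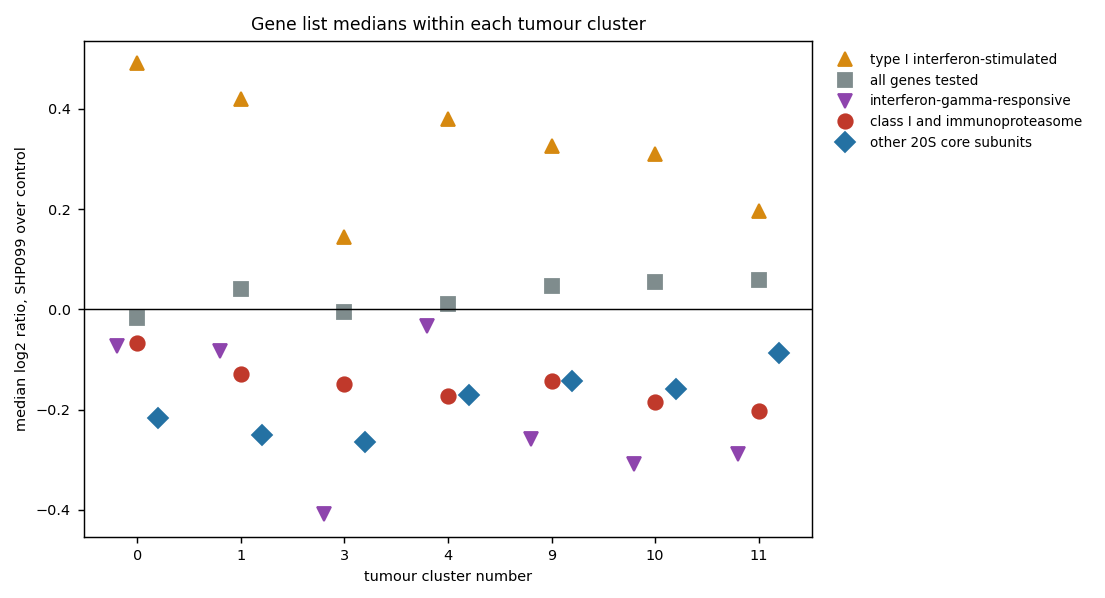
Median log2 ratio of SHP099 over control in each tumour cluster, for the 10 genes, all genes tested, both interferon lists and the other 20S core subunits. The type I interferon-stimulated list lies between 0.14 and 0.49, the 10 class I and immunoproteasome genes between -0.20 and -0.07, and the interferon-gamma-responsive list between -0.41 and -0.03.

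Phagocytes had the highest B2m of the larger classes, and in them all 10 genes were lower in SHP099, each by little. B2m was at 10219.9 CPM in SHP099 and 10970.2 CPM in control (log2 ratio -0.10), H2-K1 at 1755 CPM in SHP099 and 1812 CPM in control (-0.05) and H2-D1 at 2728 CPM in SHP099 and 2884 CPM in control (-0.08). Psmb10 was at 214 CPM in SHP099 and 240.3 CPM in control (-0.17), Tap1 at 122 CPM in SHP099 and 133 CPM in control (-0.13), Psmb8 at 705 CPM in SHP099 and 761 CPM in control (-0.11) and Psmb9 at 278 CPM in SHP099 and 286 CPM in control (-0.04). Nlrc5 was at -0.16 (interval -0.42 to 0.08), Tap2 at -0.03 (-0.18 to 0.12) and Tapbp at -0.01 (-0.09 to 0.06). These intervals, and that of Psmb9 (-0.11 to 0.03), spanned both directions. The median was -0.09, beside 0.04 over all genes, and 41.4% of all genes were lower at any size. None passed 1.5-fold, which 4.06% of genes did upward and 1.7% downward. With mitochondrial, ribosomal and haemoglobin genes left out of the totals 9 of 10 were lower; haemoglobin transcripts stood at 157 CPM in SHP099 phagocytes and 1.95 CPM in control ones, and their part in the result was not tested.

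In phagocyte clusters 7 and 8 all 10 genes were lower, with medians of -0.18 and -0.21, where 41.7% and 47% of all genes were lower at any size. Clusters 2, 5, 6 and 13 had medians of -0.10, -0.13, -0.11 and -0.13, with 7, 6, 7 and 9 genes lower, where 49.1%, 46.4%, 47.7% and 48.8% of all genes were. With mitochondrial, ribosomal and haemoglobin genes left out of the totals the count in cluster 2 was 5, near its background. Psmb9 and Psmb10 were lower in 6 of 6 clusters, between -0.38 and -0.13 and between -0.46 and -0.03. For each, the counting intervals lay below 0 in 3 clusters. The libraries held these clusters in different proportions, as in cluster 2, with 10.1% of SHP099 and 3.24% of control cells. What part this had in the values of the class was not tested. In cluster 5, the monocyte-like cells, B2m was at 8308 CPM in SHP099 and 11058 CPM in control and H2-K1 at 751 CPM in SHP099 and 1021 CPM in control, log2 ratios of -0.41 and -0.44, which were the widest for these genes among phagocyte clusters. Past 1.5-fold were only Nlrc5 in cluster 5, on 4 UMIs in SHP099 and 17 in control, and Tap2 in cluster 13, on 49 UMIs in SHP099 and 36 UMIs in control. In those clusters 17.8% of genes were as much lower and 16% as much higher. Some interferon-gamma-responsive genes differed more between the libraries in phagocytes than any of the 10 genes did: Gbp2 was at 146 CPM in SHP099 and 247 CPM in control (-0.76), Cxcl9, which draws in lymphocytes, at 300 CPM in SHP099 and 534 CPM in control (-0.83), Irf1 at 66.0 CPM in SHP099 and 97.8 CPM in control (-0.56) and Socs1 at 32.4 CPM in SHP099 and 52.4 CPM in control (-0.69). Of the 19 measured genes of that list 14 were lower and 5 higher, while in the type I interferon list 24 of 24 were higher, beside 58.6% of all genes, with Ifit1 at 124 CPM in SHP099 and 58.7 CPM in control (1.07).

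In T cells the 10 genes moved with the rest of the genes. There 8 of the 10 genes were higher in SHP099, against 59.1% of all genes, and the median of 0.07 was near the 0.08 of all genes. Under both other scalings the median was -0.01 and 5 of 10 genes were lower, beside 40.9% of all genes at the main scaling, so no direction of the group holds in T cells as a class. Their 2 clusters differed. In cluster 12, the CD8 cells, 1 of 10 genes was lower at a median of 0.03, where 43.8% of all genes were lower, and 7 were lower under both other scalings. In cluster 16, 8 of 10 were lower in all 3 scalings, where 47.7% of all genes were lower at the main one. The median there was -0.20, and -0.25 and -0.21 under the other scalings, beside 0.05 over all genes, but of the 10 counting intervals only that of H2-K1 (-0.40 to -0.06) lay below 0. B2m was at 8047 CPM in SHP099 and 7548 CPM in control (log2 ratio 0.09), H2-D1 at 2676 CPM in SHP099 and 2523 CPM in control (0.09), H2-K1 at 1656 CPM in SHP099 and 1628 CPM in control (0.02) and Psmb8 at 833 CPM in SHP099 and 857 CPM in control (-0.04). Tapbp had a log2 ratio of 0.26, Psmb9 of 0.13, Tap2 of 0.05, Nlrc5 of 0.03 and Tap1 of -0.02, each with a counting interval that included 0. Psmb10 was at 162 CPM in SHP099 (177 UMIs) and 119 CPM in control (185 UMIs), a ratio of 0.45 with a counting interval of 0.14 to 0.75. It was at 0.60 in cluster 12, where 12.5% of genes were 1.5-fold higher, and -0.27 in cluster 16. None of the 10 genes passed 1.5-fold in T cells as a class, where 11.5% of genes were as much higher and 6.6% as much lower.

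In the small classes counting error was wide. The log2 ratios of SHP099 over control in dendritic cells were -0.35 for H2-D1 (interval -0.49 to -0.21), -0.17 for B2m (-0.25 to -0.09) and -0.41 for Psmb8 (-0.61 to -0.22), and 0.13 for H2-K1, -0.52 for Tap2, -0.14 for Tapbp and -0.31 for Psmb10, whose intervals included 0. There Psmb8 was at 987 CPM in SHP099 and 1314 CPM in control, Psmb9 at 454 CPM in SHP099 and 579.6 CPM in control and Tap1 at 128 CPM in SHP099 and 214 CPM in control, on 54 UMIs in SHP099 and 72 UMIs in control for Tap1. In fibroblasts Psmb9 was at 106 CPM in SHP099 and 144 CPM in control, on 54 UMIs in SHP099 and 94 UMIs in control, and in endothelial cells at 164 CPM in SHP099 and 276 CPM in control, on 63 UMIs in SHP099 and 102 UMIs in control. In natural killer cells it was at 207 CPM in SHP099 and 167 CPM in control, on 43 UMIs in SHP099 and 61 UMIs in control. At any size, Psmb9 was thus lower in SHP099 in tumour cells, phagocytes, dendritic cells, fibroblasts and endothelial cells, and higher in T cells and natural killer cells. Its counting interval included 0 in phagocytes summed as a class, fibroblasts, T cells and natural killer cells.

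In natural killer cells the heavy chains and B2m were lower in SHP099, with log2 ratios of -0.23 for H2-K1 (interval -0.46 to -0.01), -0.26 for H2-D1 (-0.43 to -0.09) and -0.17 for B2m (-0.27 to -0.07). Tap1 was on the other side at 1.49 (0.44 to 2.63), on the few UMIs given above. Psmb8 at -0.36, Tapbp at -0.16, Tap2 at -0.02 and Psmb10 at 0.10 had intervals that included 0. In fibroblasts H2-K1 was at -0.19 (-0.33 to -0.05) and B2m at -0.09 (-0.16 to -0.03), while H2-D1 was at 0.14 (0.03 to 0.25). The intervals of Tap1 at -0.52, Tap2 at 0.24, Tapbp at -0.32, Psmb8 at -0.04 and Psmb10 at -0.16 included 0. In endothelial cells B2m was at 0.12 (0.05 to 0.19), and the intervals of H2-K1 at -0.00, H2-D1 at 0.12, Tap1 at -0.28, Tap2 at 0.56, Tapbp at -0.29, Psmb8 at -0.20 and Psmb10 at -0.51 included 0. Nlrc5 had 4 UMIs in SHP099 and 12 UMIs in control dendritic cells, 1 in SHP099 and 4 in control natural killer cells, 4 in SHP099 and 7 in control fibroblasts, and 11 in SHP099 and 8 in control endothelial cells, too few to compare.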

How the data were processed

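Cells of tumours from 1 SHP099 and 1 control library were captured with the 10x Chromium 3' kit and read on a Illumina HiSeq X series instrument, per the labels. The deposited matrices hold raw UMI counts per gene and barcode, made by the authors with Cell Ranger 3.1.0 on mm10 (GRCm38), per the file headers and the submitters' processing notes. No read-level or antisense setting is given in the sources used here.

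Barcodes with at least 200 genes and at most 20% mitochondrial UMIs were kept. Scrublet (in scanpy 1.11.5) marked 198 SHP099 and 264 control barcodes as doublets, which were removed. Cells were clustered with Leiden at resolution 1 on 2000 variable genes that excluded all gene lists used here, with 30 components, 15 neighbours and seed 1, and classes were named from marker lists. The members and all lists were chosen with earlier results of these data known.

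UMIs were summed per library and class or cluster and divided by the total (CPM). Log2 ratios add 0.5 CPM, and genes at 10 CPM or more in either library count as measured. Exact 95% Poisson intervals, conditional binomial intervals of ratios and binomial intervals of shares cover counting error only. With 1 library per group no test was run; a gene past 1.5-fold counts as different by size. The ratio script was tested on simulated data with known folds. All 10 members are named in each comparison of the libraries, and of tumour cells with phagocytes and T cells; of the other lists, a panel listed beside them and the 8 genes most correlated with the members' mean in tumour clusters are named. Alternatives were another prior (2 CPM), stricter cell filters (10% mitochondrial UMIs, 500 genes), doublets kept, equal weight for cells or clusters, cells assigned by their own markers, other scalings, Leiden resolutions 0.5 and 2, and thinning to 2000 or 1000 UMIs. Versions were Python 3.11.15, numpy 2.4.6, scipy 1.17.1, pandas 2.3.3 and anndata 0.12.19.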

Additional observations from a re-analysis of the deposited data

Results flagged for a closer look

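Genes whose counting intervals lay on opposite sides of 0 in different cell classes drew attention under the same SHP099 over control contrast. H2-D1 had a log2 ratio of 0.038 in tumour cells, -0.080 in phagocytes and 0.085 in T cells. Within the tumour class, however, H2-D1 was lower in 6 of 7 clusters. Its ratio there was -0.054 at the control cluster weights and -0.048 at the SHP099 weights. B2m was at -0.044 in tumour cells, -0.10 in phagocytes and 0.092 in T cells. The T cell values of H2-D1 and B2m lay near the all-gene median of that class, 0.076. Psmb10 was at -0.13 in tumour cells, -0.17 in phagocytes and 0.45 in T cells, where it was at 0.60 in cluster 12 and -0.27 in cluster 16. The differences between classes were not tested, since each group has 1 library, and the intervals cover counting error only.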

How the results depend on the processing

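No paired analysis was possible because each group has 1 library, and leaving out a replicate was not possible for the same reason. Of the recomputed values, 102 were counted as unchanged, judged by the counting interval of the main one or the 1.5-fold allowed for it, and 31 as moved. In T cells the SHP099 over control median of the 10 genes was 0.07 (interval -0.07 to 0.32). With clusters weighted alike it was -0.09, of the other sign and just outside that interval, although it was counted as unchanged. The SHP099 over control median of the 10 genes in tumour cells went to -0.15 with clusters weighted alike and -0.19 with cells assigned by their own markers, which kept 1326 SHP099 and 1858 control cells in the class. In phagocytes it went to -0.16 with clusters weighted alike. Tumour over phagocytes, the median in the SHP099 library was -0.85 with median-of-ratios scaling, -0.32 without mitochondrial, ribosomal and haemoglobin genes, -0.50 with each cell counted alike, -0.43 with clusters weighted alike, -0.77 by own markers and -0.83 without clusters 0, 3 and 4 (chosen after seeing the data). In control it was -0.94, -0.34 and -0.55 under the first 3 of these. Tumour over T cells, the SHP099 median was -0.50 without mitochondrial, ribosomal and haemoglobin genes, -0.91 by own markers and -0.92 without clusters 0, 3 and 4. In control it was -0.72 with median-of-ratios scaling, -0.74 with clusters weighted alike, -0.71 by own markers and -0.72 without clusters 0, 3 and 4. Thinning tumour cells to 2000 UMIs gave 6.12 for Psmb8 over Psmb5 and 1.35 for Psmb10 over Psmb7 in SHP099. At 1000 UMIs the SHP099 over control ratios of cell shares were 0.970 for H2-K1, 0.977 for H2-D1, 0.997 for B2m and 0.95005 for Tap1 in tumour cells, 0.955, 0.979 and 0.999 for the first 3 in phagocytes, and 1.02 for H2-K1, 1.495 for Tapbp and 1.11 for Psmb8 in T cells. The cause of these moves was not tested. Depth limits Nlrc5 in T cells and all values in the small classes.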
